A study of Rattus norvegicus with 12 samples.

Results

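The genes examined here were those that make or break down glucose at the steps that set the direction of carbon flow in the liver, 9 genes out of 24355 gene names listed for the 12 livers. They were chosen by name: Pck1, Pck2, Pcx, Fbp1, G6pc, Slc37a4 and Ppargc1a on the gluconeogenic side, and Pklr and Pfkfb1 on the glycolytic or bifunctional side. Where a name had several rows, the row with the highest mean level over all 12 livers was chosen by that level, so its rank above its other rows is no finding. Of the 9 genes, 6 were listed under their own symbol and Pcx was listed as Pc. No row carried the names Fbp1 or G6pc. A row listed as F16P1_RAT, the entry name of rat fructose-1,6-bisphosphatase 1, was taken for Fbp1. A row listed as Psme3 was taken as the place of G6pc1 for reasons of gene order given below. These 2 identities were inferred after the values had been seen, and both rows are kept apart from the 7 matched by name in the counts.

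Gluconeogenesis is the synthesis of glucose from lactate, amino acids and glycerol, and the liver is its main site. Most of its enzymes are shared with glycolysis and run in either direction. The steps that are not shared are catalysed by pyruvate carboxylase, phosphoenolpyruvate carboxykinase, fructose-1,6-bisphosphatase and glucose-6-phosphatase, and liver pyruvate kinase works against them by turning phosphoenolpyruvate into pyruvate. In liver the genes of the carboxykinase and the phosphatase are known to be raised by glucagon, cyclic AMP and glucocorticoids and lowered by insulin.

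All 12 animals were adult females of iP10a, an inbred line of rats bred to prefer alcohol. The 6 EtOH rats could choose between water and bottles of 10, 20 and 30% ethanol for 23 weeks, and the 6 control rats drank water. All were 38 weeks old at collection apart from EtOH animal 6, which was 39 weeks old. Ethanol was self-administered and food was free in both groups, there was no line of another genetic background, and per the study's methods no blood alcohol was detectable at sacrifice. Levels are RPKM, reads of whole liver scaled to transcript length and to the mapped reads of the library. In such bulk tissue, fewer cells of a type and less RNA per cell cannot be told apart.

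The libraries of the EtOH livers were deeper than those of the controls. The reads recovered from the RPKM values ran from 2610238 to 4318141 for controls (median 3305920) and from 3945593 to 6030028 with EtOH (median 4302209; exact permutation test, two-sided, p = 0.011). RPKM divides by depth, but a depth difference between groups remains, and with depth as a covariate limma called 16 transcripts in place of 526. The split of the calls also moved with the scaling, from 245 higher and 281 lower to 194 and 337 with median-ratio scaling, 126 and 648 with no normalization between livers and 139 and 448 with voom on the recovered reads, where the median of all log2 fold changes was -0.14 in place of 0.00. The 12 livers resembled each other closely, with a median correlation of each to the others of its group between 0.930 and 0.948 on the log2 scale across transcripts, and no library repeated another.

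The highest log2 fold change among these genes was that of Pck1, which encodes the cytosolic phosphoenolpyruvate carboxykinase and makes phosphoenolpyruvate from oxaloacetate. Its RPKM was 223, 257, 250.4, 211, 306 and 341 in control livers 1 to 6. In EtOH livers 1 to 6 it was 695, 733, 839.7, 637, 1148 and 725. The lowest EtOH liver was thus well above the highest control liver, and EtOH liver 5 stood highest. The mean rose from 265 ± 49.9 to 796 ± 184 RPKM (SD, n = 6 each), a ratio of 3.01. On the normalised log2 scale the rise was 1.62 (SE 0.16, 95% interval 1.28 to 1.97; limma, Benjamini-Hochberg adjusted p = 5.06e-04). The value rested on 15989 control and 65047 EtOH reads, so that it was not limited by few reads. The number of reads does not address the depth difference between the groups. With depth as a covariate the rise was 1.38 and the adjusted p from limma 0.0498, and over the 24 other settings it remained called. The row covers chromosome 3, 164012410 to 164018345, in the coordinates of the deposited table.

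The promoter of Pck1 is shown because this gene carried the highest fold change and because its cyclic AMP response element is a textbook site of hormone control. The stretch runs from 250 bases before the RefSeq start to 50 after it, on the plus strand of the RefSeq assembly GRCr8 at chr3:182348322-182348621. Capitals mark the only match to CGTCA, the core of a cyclic AMP response element half-site, at positions -90 to -86 from the start.
Pck1: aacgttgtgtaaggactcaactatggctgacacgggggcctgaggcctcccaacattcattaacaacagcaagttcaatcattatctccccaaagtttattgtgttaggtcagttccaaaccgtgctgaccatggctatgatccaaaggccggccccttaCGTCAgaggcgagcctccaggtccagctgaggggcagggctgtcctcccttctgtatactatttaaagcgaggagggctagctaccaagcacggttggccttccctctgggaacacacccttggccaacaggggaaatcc

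A large rise was also seen in the row taken as the place of G6pc1, the catalytic subunit of glucose-6-phosphatase, which releases free glucose in the last step of the pathway. The row is named Psme3, the gene of a proteasome activator subunit, but it is the last of 6 rows of that name between Becn1 and Rundc1. In the RefSeq order the genes between those are Psme3, Aoc3, G6pc1, Aarsd1 and Ptges3l, and RefSeq also lists Psme3 as a synonym of G6pc1. The row covers chromosome 10, 90393531 to 90403485, in the table's coordinates. Its RPKM was 52.1, 81.9, 62.9, 76.2, 96.9 and 95.8 in control livers 1 to 6, and 178, 192, 231, 178, 277 and 158 in EtOH livers 1 to 6. No EtOH liver fell into the control range, and EtOH liver 5 was again the highest. The mean was 77.6 ± 17.9 RPKM in the control group and 202 ± 43.9 in the EtOH group (SD, n = 6 each), a ratio of 2.60. The log2 rise was 1.53 (SE 0.18, 95% interval 1.15 to 1.91; limma, Benjamini-Hochberg adjusted p = 0.00142). With depth as a covariate it was 1.14 and no longer called (limma adjusted p = 0.106).

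The main Psme3 row, at the place of the proteasome gene itself, went from 15.9 ± 1.25 RPKM in control to 11.9 ± 1.54 in EtOH livers (log2 fold change -0.29, limma adjusted p = 0.115). It was thus lower, not higher, in the EtOH livers, and did not pass.

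The promoter of G6pc1 is shown because the row taken as its place was also called higher. The stretch lies at chr10:86807409-86807708 on the plus strand of GRCr8. Capitals mark the only match to TGTTTTG, the core of an insulin response element to which FOXO factors are known to bind, at positions -186 to -180 from the start.
G6pc1: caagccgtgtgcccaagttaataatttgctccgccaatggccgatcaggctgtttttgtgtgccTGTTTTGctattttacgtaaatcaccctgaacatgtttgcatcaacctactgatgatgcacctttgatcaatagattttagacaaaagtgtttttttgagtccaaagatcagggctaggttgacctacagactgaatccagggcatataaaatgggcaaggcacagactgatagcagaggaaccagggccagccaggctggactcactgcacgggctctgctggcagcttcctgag

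Both motifs are frequent. Of 33469 promoters of the same length in RefSeq, 21.2% held CGTCA and 6.28% held TGTTTTG on either strand. RefSeq gave such a stretch for 8 of the 9 genes, all but Pc, with 2 for Slc37a4. CGTCA was found for Pck1, Slc37a4 and Ppargc1a, TGTTTTG for G6pc1 alone, and CACGTG, the letters of an E-box held by 6.42% of all promoters, for none of them. A match here is a match of letters and was not tested for binding.

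**Figure D1:**
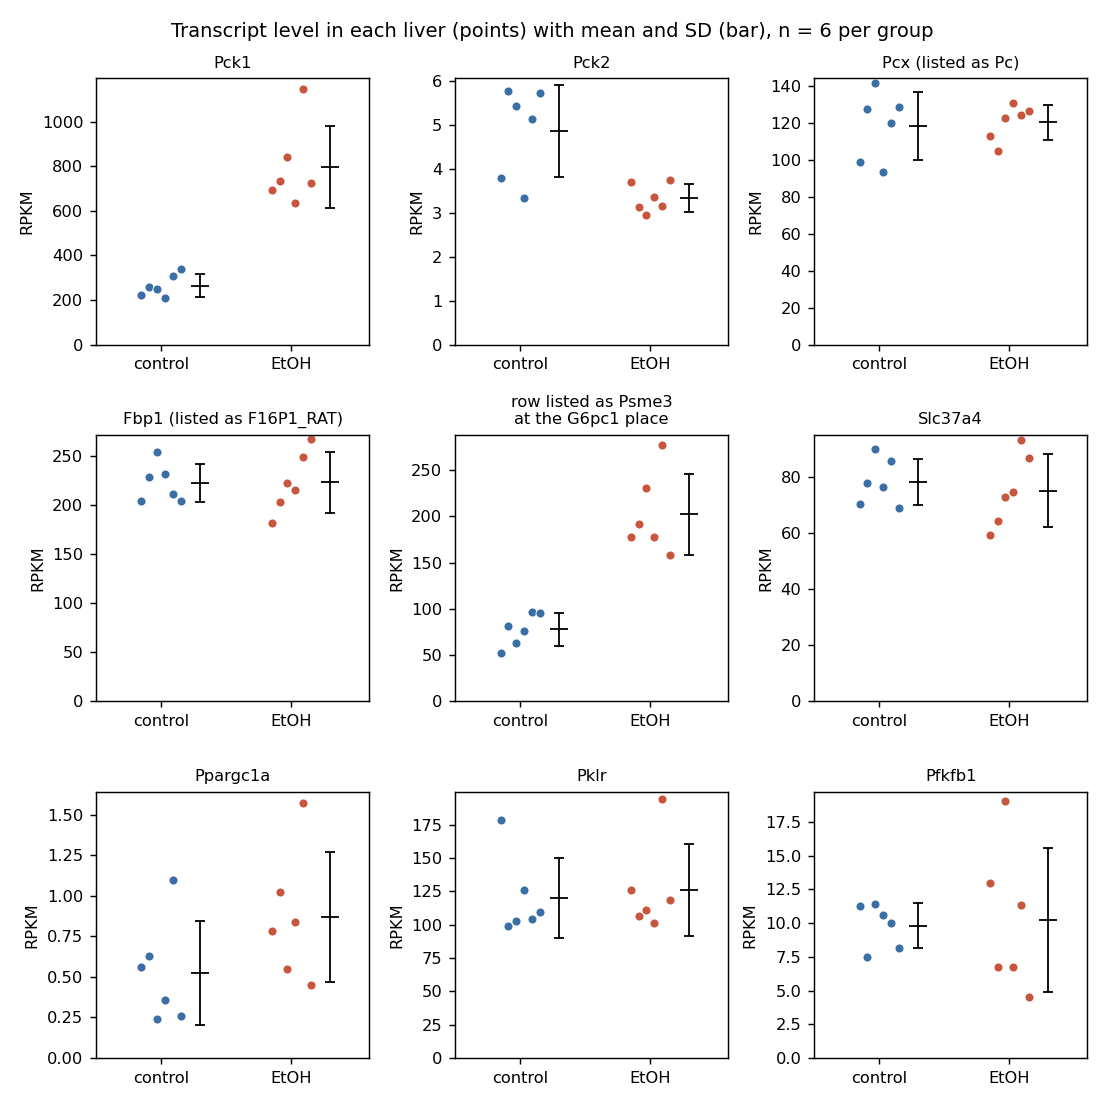
RPKM of the 9 genes in each of the 12 livers, 1 panel per gene with its own linear axis from 0. Points are livers 1 to 6 of each group from left to right, and the bar gives the mean and SD. In the Pck1 panel and in that of the row at the G6pc1 place every EtOH liver lies above every control liver, and in the other 7 panels the groups overlap.

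The other carboxykinase did not follow Pck1. Pck2, which encodes the mitochondrial enzyme, was at 3.78, 5.76, 5.42, 3.32, 5.14 and 5.71 RPKM in control livers 1 to 6. It was at 3.69, 3.13, 2.94, 3.36, 3.15 and 3.75 RPKM in EtOH livers 1 to 6. All EtOH livers lay below 5 of the 6 control livers, and control liver 4 lay among them. The means were 4.86 ± 1.04 and 3.34 ± 0.324 RPKM (SD, n = 6 each), and the log2 fold change was -0.40 (SE 0.14, 95% interval -0.70 to -0.10). Over all transcripts tested it did not pass (limma, Benjamini-Hochberg adjusted p = 0.172). Only 24 to 59 reads per liver were assigned to it. As a share of Pck1 and Pck2 RPKM together, Pck2 ran from 1.55 to 2.19% in control livers but from 0.274 to 0.528% with EtOH, so that the cytosolic form made up nearly all carboxykinase transcript in both groups.

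Pcx, pyruvate carboxylase, supplies the oxaloacetate that the carboxykinases use. Its RPKM was 98.7, 127, 142, 93.4, 119.8 and 128 in control livers 1 to 6, and 113, 105, 122, 131, 124 and 126 in EtOH livers 1 to 6. The EtOH livers all lay within the control range. Means were 118 ± 18.6 and 120.1 ± 9.59 RPKM (SD, n = 6 each), and the log2 fold change after quantile normalization was 0.19 (SE 0.08, 95% interval 0.03 to 0.35; limma adjusted p = 0.240). Without a normalization between livers this value was 0.03. The quantile step moved the log2 fold change upward by 0.05 for Pck1 and by 0.16 for Pcx, and that of all transcripts tested by 0.02 at the median.

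The row taken for Fbp1, which removes a phosphate from fructose-1,6-bisphosphate, showed no difference between the groups beyond their spread. Its RPKM was 205, 229, 255, 232, 211 and 204 in control livers 1 to 6 and 182, 203, 222, 215, 249.8 and 267 in EtOH livers 1 to 6. Both groups had a mean of 223 RPKM (SD 19.7 and 31.1, n = 6 each), and both the lowest and the highest liver were EtOH livers. The log2 fold change was 0.13 (SE 0.06; limma adjusted p = 0.327), and -0.0024 without a normalization between livers.

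Slc37a4, the transporter that carries glucose 6-phosphate to the phosphatase inside the endoplasmic reticulum, also overlapped between the groups. It was at 70.2, 77.8, 89.9, 76.2, 85.7 and 69.0 RPKM in control livers 1 to 6 and at 59.2, 64.3, 72.8, 74.6, 93.2 and 86.6 in EtOH livers 1 to 6. Means were 78.1 ± 8.31 and 75.1 ± 12.9 RPKM (SD, n = 6 each). The log2 fold change was 0.07 (SE 0.08, 95% interval -0.11 to 0.26; limma adjusted p = 0.692), and its sign turned with no normalization between livers (-0.068) and with voom on the recovered reads (-0.052).

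Ppargc1a encodes PGC-1alpha, a coactivator known to raise gluconeogenic genes in fasting liver, and it was close to the limit of detection. Its RPKM was 0.563, 0.631, 0.242, 0.357, 1.10 and 0.260 in control livers 1 to 6, and 0.781, 1.03, 0.551, 0.839, 1.57 and 0.453 in EtOH livers 1 to 6. The groups overlapped, with EtOH livers 3 and 6 below control liver 2. The means of 0.525 ± 0.322 and 0.871 ± 0.401 RPKM (SD, n = 6 each) rested on 2 to 19 reads per liver. The log2 fold change was 0.39 (SE 0.24, 95% interval -0.13 to 0.91; limma adjusted p = 0.489), so that a change was not detectable at this depth. The 0.5 added to each RPKM before the log shrinks the value at such low levels. It was 0.27 with 1 added, 0.62 with 0.1 added and 0.71 with voom on the recovered reads, and none of these was called.

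On the glycolytic side, Pklr encodes the pyruvate kinase of liver and red cells. It was at 178, 99.0, 102, 126, 104 and 109.5 RPKM in control livers 1 to 6 and at 126, 106, 111, 101, 194 and 119 in EtOH livers 1 to 6. One liver of each group, control liver 1 and EtOH liver 5, stood far above the rest of its group, and the others lay between 99.0 and 126 RPKM. Means were 119.8 ± 30.2 and 126 ± 34.6 RPKM (SD, n = 6 each), with a log2 fold change of 0.22 (SE 0.18, 95% interval -0.18 to 0.62; limma adjusted p = 0.649). Without EtOH liver 5 the log2 fold change was 0.10, and without control liver 1 it was 0.35.

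Pfkfb1 encodes the liver form of the bifunctional enzyme that makes and breaks fructose-2,6-bisphosphate, the signal that stimulates glycolysis and inhibits fructose-1,6-bisphosphatase. Its RPKM was 11.3, 7.46, 11.4, 10.6, 10.0 and 8.15 in control livers 1 to 6 and 13.0, 6.74, 19.0, 6.76, 11.3 and 4.56 in EtOH livers 1 to 6. The EtOH livers were spread on both sides of the control range. Means were 9.82 ± 1.65 and 10.2 ± 5.34 RPKM (SD, n = 6 each), and the log2 fold change was 0.04 (SE 0.29, 95% interval -0.58 to 0.67; limma adjusted p = 0.956). Its sign turned under 7 of the 24 other settings.

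**Figure D2:**
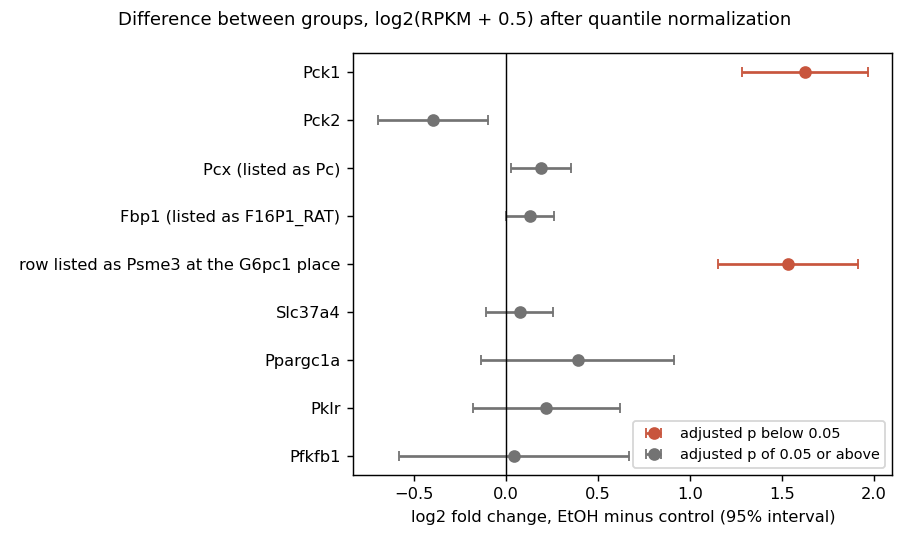
Log2 fold change of EtOH against control livers for the 9 genes with 95% intervals from limma (n = 6 per group). Pck1 at 1.62 and the row at the G6pc1 place at 1.53 stand apart from the other 7, which lie between -0.40 and 0.39.

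Of the 7 genes matched by name, 1 was called higher and 0 lower. The median log2 fold change of the 7 was 0.19, and of all 21718 transcripts tested it was 0.00. The 0.19 was the value of Pcx and depended on the quantile step. With no normalization between livers Pcx was at 0.03, and the median of all transcripts tested was -0.02. With the rows taken for Fbp1 and G6pc1, 2 of 9 were called higher and 0 lower by limma, with 4 at an unadjusted p under 0.05, 1 of them lower (Pck2); voom on the recovered reads also called 2 higher and 0 lower. Over all transcripts tested, 2.42% were called, 1.13% higher and 1.29% lower in the EtOH livers. No share of all transcripts was counted at the unadjusted threshold. Counts at that threshold, here and in the lists below, thus have no background beside them. The groups did not overlap in RPKM for 3.1% of all transcripts tested, and for Pck1 and the row at the G6pc1 place among the 9.

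The gluconeogenic and glycolytic sides were then set against each other within each liver, as log2 ratios of RPKM that do not depend on scaling between libraries. Pck1 over Pklr was 0.32, 1.38, 1.29, 0.75, 1.56 and 1.64 in control livers 1 to 6. It was 2.47, 2.79, 2.92, 2.66, 2.56 and 2.61 in EtOH livers 1 to 6. Every EtOH liver had a higher ratio than every control liver, and EtOH liver 5, high in both transcripts, lay within the range of its group. The mean log2 ratio went from 1.16 ± 0.51 without to 2.67 ± 0.16 with EtOH (SD, n = 6 per group), 2.85-fold apart on the linear scale.

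The row at the G6pc1 place over Pklr also separated the groups, from -0.63 ± 0.62 in control to 0.69 ± 0.25 in EtOH livers (2.50-fold). Pcx over Pklr averaged -0.0029 ± 0.52 for the control group against -0.036 ± 0.35 for the EtOH group. The row taken for Fbp1 over Pfkfb1 averaged 4.52 ± 0.25 and 4.60 ± 0.85. These last ratios both overlapped between the groups. Pck1 over Pcx, between the consecutive steps from pyruvate to phosphoenolpyruvate, went from 1.16 ± 0.22 to 2.70 ± 0.31 without overlap. Pck1 over Pck2 went from 5.78 ± 0.22 to 7.88 ± 0.39, and the row at the G6pc1 place over Slc37a4 from -0.037 ± 0.37 to 1.42 ± 0.30, both without overlap. The ratio of Pck1 to the row at the G6pc1 place, 1.78 ± 0.24 and 1.98 ± 0.13, overlapped. These ratios were chosen after the values had been seen and carry no test.

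**Figure D3:**
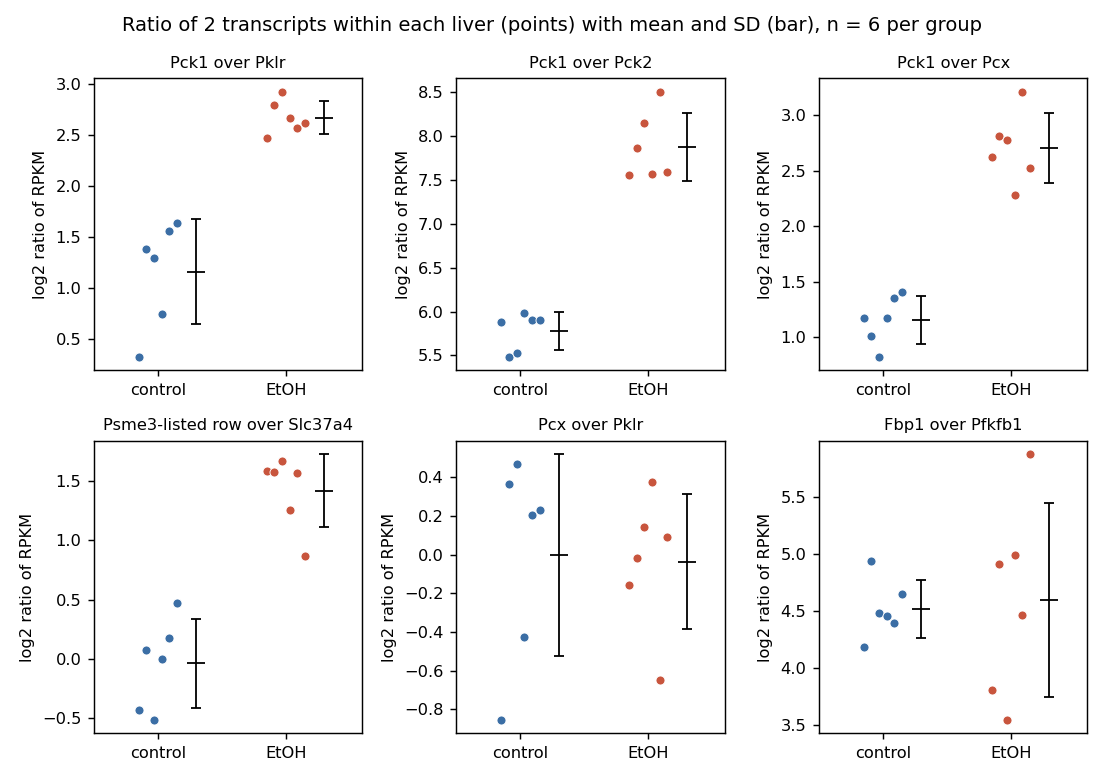
Log2 ratio of RPKM of a pair of transcripts within each liver, with group mean and SD beside the points (n = 6 per group; the axes do not start at 0). The 4 ratios with Pck1 or the Psme3-listed row as numerator separate the groups, and Pcx over Pklr and Fbp1 over Pfkfb1 do not.

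RPKM is scaled to transcript length, so that levels can be ordered across genes. In the control livers the order of mean RPKM was Pck1 (265), the Fbp1 row (223), Pklr (119.8), Pcx (118), Slc37a4 (78.1), the row at the G6pc1 place (77.6), Pfkfb1 (9.82), Pck2 (4.86) and Ppargc1a (0.525). Pck1 and the Fbp1 row overlapped, as did Pklr and Pcx, and Slc37a4 and the row at the G6pc1 place. In the EtOH livers Pck1 (796) stood clear of all others. The row at the G6pc1 place (202) had moved above Pklr (126) and Pcx (120.1) to overlap with the Fbp1 row (223), and in all 6 EtOH livers it was above Pklr. The order of the remaining genes was the same in both groups.

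The spread between animals of a group was compared pair by pair, with 36 pairs of the 9 genes in each group of 6 livers. Of the 72 correlations, 0 passed after Benjamini-Hochberg adjustment by exact permutation (smallest adjusted p = 0.2). An unadjusted p under 0.05 was seen for 5 with Pearson's r and for 4 with Spearman's rho. With 6 livers the exact p cannot get small enough for a pair to pass alone over 72 tests. The count of 0 thus cannot show that these genes vary independently. Pck1 and the row at the G6pc1 place had a positive r in both groups. In the EtOH livers r was 0.87 (exact permutation p = 0.025, adjusted p = 0.5) and rho 0.93 (exact permutation p = 0.0167, adjusted p = 0.6), and r was 0.90 without the 2 livers farthest from the median of Pck1. In the control livers r was 0.77 (exact permutation p = 0.0778, adjusted p = 0.717) and rho 0.77 (exact permutation p = 0.103, adjusted p = 0.844), and r was 0.20 without the 2 farthest livers, so that there the relation rested on those.

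Pck1 and Pklr gave no stable relation. In the EtOH livers r was 0.90 (exact permutation p = 0.0278, adjusted p = 0.5) and rho 0.64 (exact permutation p = 0.2, adjusted p = 0.87). Without the 2 livers farthest from the median of Pck1, 1 of them EtOH liver 5, r was -0.20. In the control livers r was -0.15 (exact permutation p = 0.775, adjusted p = 0.925) and rho -0.086 (exact permutation p = 0.919, adjusted p = 1). The strongest pair was Pck2 and Pcx in the control livers, with r of 0.99 (exact permutation p = 0.00278, adjusted p = 0.2). Its rho was 0.94 (exact permutation p = 0.0167, adjusted p = 0.6), and r was 0.95 without the 2 farthest livers.

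**Figure D4:**
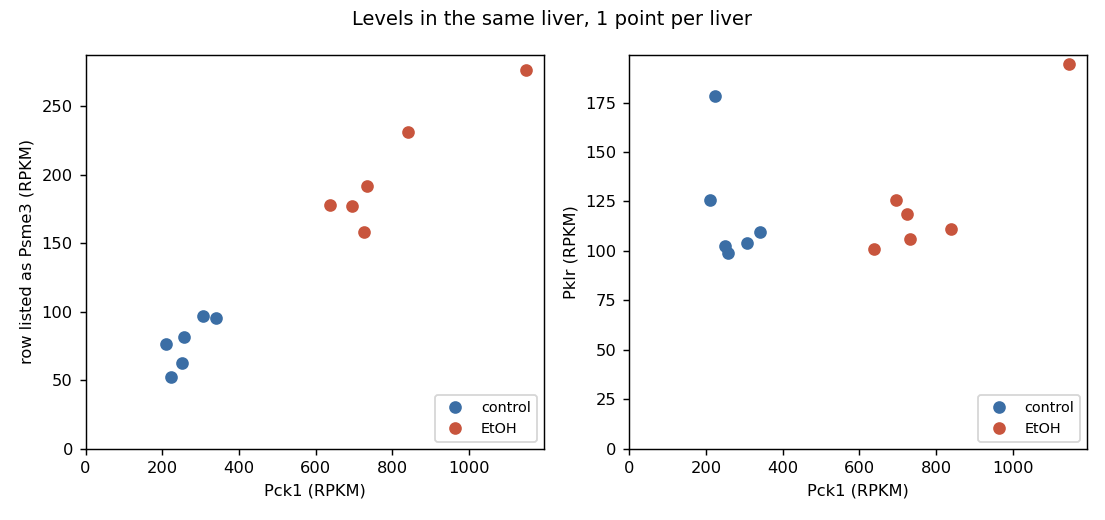
RPKM of the row at the G6pc1 place (left) and of Pklr (right) against RPKM of Pck1, 1 point per liver, with 6 control and 6 EtOH livers. On the left the groups lie at separate ends of both axes, and on the right they lie apart along Pck1 only, with control liver 1 and EtOH liver 5 high in Pklr.

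After each group's mean was subtracted, the genes whose level over the 12 livers was most like Pck1 among 8426 genes ranked were Nadk (r = 0.93), which encodes NAD kinase, the small MAF factor Mafk (r = 0.88) and the glucose transporter Slc2a1 (r = 0.88). Those most like Pklr were Farp2 (r = 0.92), RGD1309676 (r = 0.87) and Dlat (r = 0.86), the acetyltransferase subunit of pyruvate dehydrogenase. Slc2a1 was low, at 0.867 ± 0.560 RPKM in control and 1.23 ± 0.440 in EtOH livers, near the minimum mean RPKM of 1 for this ranking. None of the 6 was called between the groups. These are the highest of many values and are given as a description, without a test.

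The rest of the pathway changed at a few points, and none of the calls in its 4 lists held in limma with depth as a covariate. The log2 fold changes in that fit were 1.98 for Got1, 0.50 for Slc2a2, 0.51 for Nr3c1, 0.60 for Txnip, 0.62 for Pdk4 and -0.16 for Gapdh, against 2.04, 0.46, 0.56, 0.67, 0.89 and -0.21 without the covariate. Of 42 enzymes and transporters listed around the 9 genes, 39 were found and tested, 3 were called higher and 1 lower, and their median log2 fold change was -0.0067. Of all transcripts tested, 1.13% were called higher and 1.29% lower. Among the reversible enzymes shared by glycolysis and gluconeogenesis, listed with the malate dehydrogenases and aspartate aminotransferases, 11 of 12 were found. Of these an aminotransferase rose, a glycolytic enzyme fell, and 3 genes were lower at an unadjusted p under 0.05 (Gapdh, Tpi1 and Mdh2). Got1, the cytosolic aspartate aminotransferase that helps to carry oxaloacetate out of the mitochondrion, ran from 30.2 to 54.9 RPKM in control and from 90.7 to 339.5 in EtOH livers, without overlap. Its mean rose from 43.8 ± 7.95 to 176 ± 88.5 RPKM (SD, n = 6 each; log2 fold change 2.04, SE 0.26; limma adjusted p = 0.0026). Gapdh, glyceraldehyde-3-phosphate dehydrogenase, fell slightly, from 691 ± 43.3 to 597 ± 30.6 RPKM without overlap (log2 fold change -0.21, SE 0.04; limma adjusted p = 0.028), a call lost under 10 of 24 other settings. The malate dehydrogenases Mdh1 (log2 fold change -0.0067) and Mdh2 (-0.11) and the mitochondrial aminotransferase Got2 (0.09) did not pass, although Mdh2 did not overlap between the groups in RPKM (131 ± 13.2 and 108 ± 7.94).

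Of the other glycolytic isoforms and kinases, 11 of 12 were found and 0 were called by limma, with 0 at an unadjusted p under 0.05 and 0 called by voom. The most abundant was Aldoa, at 30.3 ± 6.11 RPKM in the control and 25.4 ± 2.83 in the EtOH livers (limma adjusted p = 0.738). The smallest p belonged to Aldoc, at 0.346 and 0.169 RPKM (limma adjusted p = 0.427).

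Of 18 genes of substrate entry and other gluconeogenic isoforms, 17 were found and 2 were called by limma, both higher. At an unadjusted p under 0.05 there were 7, of which Fbp2, Gpd1 and Slc25a10 were lower, and voom called 1 gene of the list, Gpd1, which was lower (205 to 158 RPKM). Slc2a2, the glucose transporter of the hepatocyte membrane, rose from 140.0 ± 10.1 to 174 ± 30.6 RPKM (log2 fold change 0.46, SE 0.09; limma adjusted p = 0.0252). Pdk4, a kinase that inactivates pyruvate dehydrogenase and so spares pyruvate, rose from 21.7 ± 6.94 to 35.9 ± 6.82 RPKM (log2 fold change 0.89, SE 0.21; limma adjusted p = 0.0478). These calls were lost under 9 and 17 of the 24 other settings, respectively. Mpc1, a subunit of the mitochondrial pyruvate carrier listed as Brp44l and the most abundant of the list, was at 271 ± 18.7 and 284 ± 21.2 RPKM (limma adjusted p = 0.399). The alanine aminotransferase Gpt2 (log2 fold change 0.47, limma adjusted p = 0.123) and glycerol kinase Gk (0.36, limma adjusted p = 0.184) did not pass. Fbp2 and G6pc3, isoforms of the phosphatases, did not pass either, with log2 fold changes of -0.68 and -0.17.

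**Figure D5:**
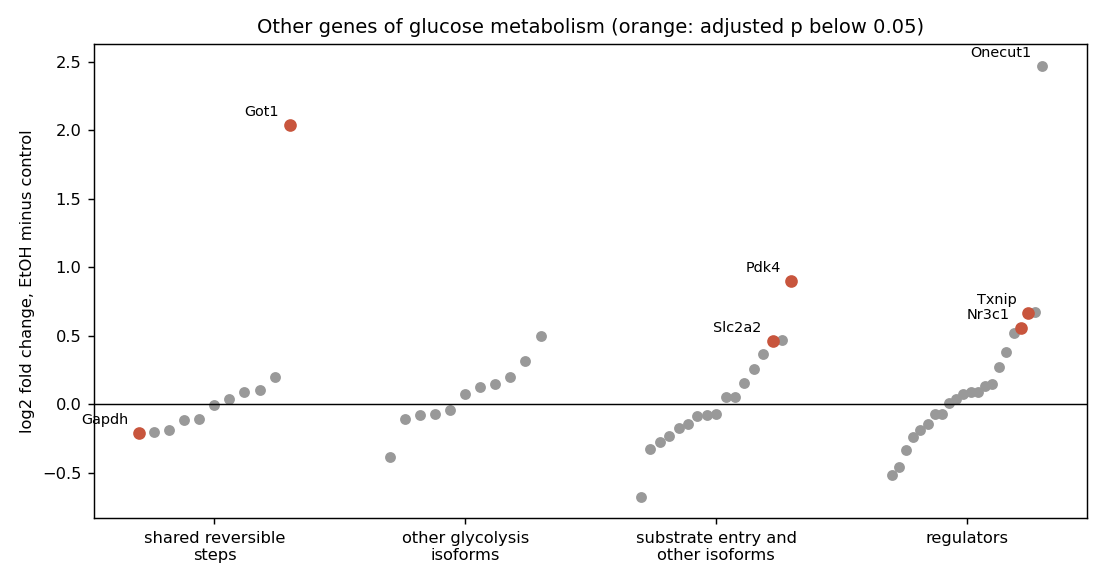
Log2 fold change of EtOH against control livers for the genes found of 4 lists, sorted within each list, 1 point per gene; orange marks a limma adjusted p under 0.05. Got1 at 2.04 and Pdk4 at 0.89 lie highest among the enzymes, Nr3c1 and Txnip are the called regulators, and Onecut1 at 2.47 was not called.

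Among 24 regulators of these genes, 22 were found, 2 were called higher and 0 lower by limma, with 7 at an unadjusted p under 0.05, 2 of them lower, and 2 called by voom, 0 of them lower; the median log2 fold change was 0.08. The share of all transcripts tested that limma called higher was 1.13%. Nr3c1, the glucocorticoid receptor, rose from 18.8 ± 2.20 to 25.2 ± 3.13 RPKM (log2 fold change 0.56, SE 0.10; limma adjusted p = 0.0161). Txnip, a protein that restrains glucose uptake and is known to be induced by glucose and by fasting, rose from 18.8 ± 2.20 to 27.0 ± 1.71 RPKM without overlap (log2 fold change 0.67, SE 0.09; limma adjusted p = 0.00293). The most abundant, Hnf4a, a hepatocyte nuclear factor, was at 133 ± 16.7 and 120.0 ± 8.99 RPKM (limma adjusted p = 0.985).

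Other regulators of the hormone response did not pass. Foxo1, the forkhead factor restrained by insulin, had a log2 fold change of 0.27 (limma adjusted p = 0.465), and Crtc2, a coactivator of the cyclic AMP response, -0.07 (limma adjusted p = 0.766). The glucagon receptor Gcgr stood at -0.07 (limma adjusted p = 0.75), the insulin receptor Insr at 0.38 (limma adjusted p = 0.709) and the CCAAT-binding factors Cebpa and Cebpb at -0.52 and -0.46 (limma adjusted p = 0.219 and 0.231). The kinase Sik1, a target and brake of cyclic AMP signalling, was at 0.52 (limma adjusted p = 0.0985). Onecut1, singled out after its value was seen, had the highest log2 fold change of the list at 2.47, but was listed at 0 in 1 control liver and did not pass (SE 0.75; limma adjusted p = 0.117).

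Markers of the liver's cell types were set beside these results, since these genes are known to be zoned within the lobule. Hepatocyte markers summed to 82704 to 110736 RPKM in control livers and to 90995 to 116991 with EtOH, with 0 of 4 called by voom. The quantile step gave Alb the same value in every liver, and likewise Tf, so that limma could not test these genes. Of 4 periportal markers, 2 were called higher, Cps1, the entry enzyme of the urea cycle (586 ± 61.3 to 849.7 ± 103 RPKM, log2 fold change 0.58, limma adjusted p = 0.0224), and the glutaminase Gls2 (73.9 ± 6.05 to 98.7 ± 20.0 RPKM, 0.55, limma adjusted p = 0.0309). Hal (164 ± 15.6 to 154 ± 28.3 RPKM, log2 fold change 0.04) and Arg1 (656 ± 89.8 to 609 ± 115 RPKM, -0.11) were not called. Limma called 1.13% of all transcripts tested higher. Of the periportal list the sums ran from 1355 to 1604 and from 1408 to 2090 RPKM. The 3 pericentral markers found ran from 1999.6 to 2611 and from 2584 to 3048 RPKM, with 0 called by limma, but all 3 were higher in the EtOH livers at an unadjusted p under 0.05 and voom called 1. Gluconeogenesis is known as a periportal function, and the part of zonal change in these results was not tested.

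Markers of other cells were low beside those of hepatocytes. The Kupffer cell and leukocyte list summed to 70.5 to 104 RPKM in the control and 94.0 to 117 in the EtOH livers, with Clec4f and Cd163 called higher. The endothelial list summed to 24.5 to 31.3 and 27.8 to 38.6 RPKM, with Cdh5 called higher. Over all transcripts tested, 1.13% were called higher by limma. The stellate list ran from 5.45 to 8.46 and from 7.88 to 13.0, the cholangiocyte list from 4.27 to 8.16 and from 3.69 to 7.67, the adipose list from 4.03 to 10.7 and from 4.31 to 7.30, and the pancreas list from 22.5 to 74.4 and from 10.7 to 41.0 RPKM. In these 4 lists 0 genes were called by limma or voom, with 3 stellate genes higher and 0 of the other 3 lists' genes at an unadjusted p under 0.05. The adipose genes Adipoq, Plin1 and Lep and the pancreatic genes Prss1 and Pnlip were listed at 0 in all 12 livers. The marker calls were lost under many of the 24 other settings, under 17 for Cdh5, 16 for Cd163, 14 for Gls2, 9 for Clec4f and 6 for Cps1, and voom called 0 genes of the Kupffer cell and endothelial lists. The part of these cells in the results was not tested.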

How the data were processed

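Livers of 6 EtOH and 6 control rats were grouped by their titles. The authors mapped 101-nucleotide paired-end reads of poly(A) RNA, all libraries in a single barcoded lane, with CLCbio Genomics Workbench 4.9 and deposited RPKM per transcript and liver. The genome build was not stated there. The authors also deposited score and p-value columns that hold their own comparison of the groups; these were not used.

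Of 34391 rows, the 21718 above 0 in at least 1 liver were tested with limma 3.58.1 (R 4.3.3) with a variance trend on quantile-normalized log2(RPKM + 0.5) and called at a Benjamini-Hochberg adjusted p under 0.05. The pseudocount makes the fold changes of low genes too small. The recovered reads are the smallest whole numbers that fit the ratios of RPKM values. Such numbers were found for 100% of the tested rows, within 0.01 read or slightly more at very high counts. A row above 0 in few livers can be fitted with too few reads, so they are lowest counts and not verified ones. Voom on these reads was an alternative. Other steps used scipy 1.17.1, pandas 2.3.3 and numpy 2.4.6 in Python 3.11.15, and exact permutation tests were two-sided. On simulated data of this comparison with 20792 rows, limma recovered 73 of 100 changes of log2 1 and 98 of 100 of log2 2, with 6 unchanged rows called. The changed rows were drawn only from rows above a minimum of reads. All rows were given the same spread between livers beyond that of read counting. These rates are thus not those of low genes such as Ppargc1a, or of genes that vary more between animals.

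Members and lists were chosen with earlier results of these data known. The named genes are the 9 members, every called gene, the gene with the smallest p and the most abundant gene of each pathway list, the 3 genes most like Pck1 and Pklr, and called cell type markers; other named genes were chosen after their values were seen, as were the ratios, the promoters shown and the 2 rows taken for Fbp1 and G6pc1. Among the genes not found by name were Hk1, Mpc2, Mlxipl and Sirt1. Chromosomes in the table were the same as in RefSeq for 103 of 104 genes checked, all but Pgam1. The alternatives were pseudocounts of 0.1 and 1, a minimum mean RPKM of 1, other or no normalization, no trend, square-root values with moderated or pooled error, rows summed per gene name, depth as a covariate, the animal number as a block, and each liver left out in turn. The study's methods say that the rats were split evenly between the groups, and their section on qRT-PCR analysis names a completely randomized design. How the assignment was made is not described further. The p-values measure the spread between these 12 animals.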

Additional observations from a re-analysis of the deposited data

Results flagged for a closer look

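Pklr stood out by single livers in both groups. Control liver 1 had 178 RPKM, and its gap to the next liver was 0.663 of the range of the control group. EtOH liver 5 had 194 RPKM, and its gap was 0.735 of the range of its group. Both gaps exceed Dixon's 95% limit for 6 values. Among the 9 genes, 18 groups of 6 livers were examined and these were the 2 that exceeded the limit; chance alone passes it in about 5% of groups. EtOH liver 5 was also the highest of its group for Pck1 (1148 RPKM), the row at the G6pc1 place (277), Slc37a4 (93.2) and Ppargc1a (1.57). Control liver 1 was the lowest of its group for the row at the G6pc1 place (52.1).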

How the results depend on the processing

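Pck1 was called higher in all 24 alternatives, with log2 fold changes from 1.38 (depth as a covariate) to 1.72 and an adjusted p of at most 0.0498 (limma); it was the gene matched by name that was called in each of them, and with the rows taken for Fbp1 and G6pc1 added the main count was 2. The row at the G6pc1 place lost its call with depth as a covariate only. The 526 calls over all transcripts became 16 with depth as a covariate, 860 with a mean RPKM of at least 1, 113 with the replicate block, 975 with rows summed per gene name and 322 with square-root values and a pooled error. With 1 liver left out they ran from 212 to 656, and moved by over 1.5 times without EtOH animal 2 (212), 3 (252), 4 (295) or 5 (298) or control animal 2 (275) or 4 (285). The 4 calls among other enzymes and transporters became 0 with depth as a covariate, 1 with the replicate block or median-ratio scaling, 2 with voom, no normalization, no trend or square-root values and a pooled error, and 1 to 4 with 1 liver left out: 1 without EtOH animal 2, and 2 without EtOH animal 3, 4 or 6 or control animal 2. The 2 calls among regulators became 0 with depth as a covariate, 1 with the replicate block and 5 with rows summed. The cause of these changes was not tested. Signs turned for values that were not called: Fbp1 (-0.0024) with no normalization, Slc37a4 with voom (-0.052) and no normalization (-0.068), and Pfkfb1 with depth as a covariate (-0.21), voom (-0.015), no normalization (-0.074) and in 4 of 12 cases with 1 liver left out (range -0.17 to 0.25). Animal numbers did not pair the livers: deviations of same-numbered animals correlated between -0.067 and 0.032. Depth limits Ppargc1a and Pck2, with at most 19 and 59 reads per liver.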
